A study of Homo sapiens with 45 samples.

Results

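The kinesins are motor proteins that walk along microtubules, and the data below are on the 42 kinesin superfamily genes, of 29159 genes in the count tables, that were found by symbol (KIF followed by a number and at most 1 letter, or KIFC followed by a number). By their textbook roles they were put in 3 classes of 13 mitotic kinesins, 16 transport kinesins and 13 other kinesins. Palbociclib (PB), an inhibitor of CDK4 and CDK6 that stops cells before S phase, was given at 1 μM to 3 human neuroblastoma cell lines of the adrenergic type, and polyadenylated RNA was sequenced from control cells, from cells after 24 h of PB and from cells after a longer treatment. They were IMR-32, with amplified MYCN and MEIS1 and loss of 1p, SH-SY5Y, with mutant ALK and gains of 1q and 17q, and SK-N-BE(2)C, with amplified MYCN and loss of 1p. PB was kept on for 7 days in the SK-N-BE(2)C line and for 5 days in both others, so its length cannot be told apart from the line, and since control cells were harvested together with those of 24 h, the samples of the longer time also differed from them in time in culture. Whether the control cells were given the solvent DMSO is not stated for these samples, and untreated below means without PB. Each of the 9 groups had 5 libraries from separate passages of 1 line (45 libraries), so the p-values measure the spread between passages and each line stands for itself only.

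A dividing cell uses one set of kinesins and a neurite another. Mitotic kinesins build the bipolar spindle, align and hold chromosomes, shorten microtubules and build the central spindle for cytokinesis, and as a rule they are made in the G2 and M phases of the cell cycle. Transport kinesins carry vesicles, mitochondria and protein complexes toward microtubule plus ends in all cells, and neurons hold additional forms for the axon and the dendrites, among them KIF1A, KIF5A, KIF5C, KIF3C, KIF21B and KIFC2. In sympathetic neuroblasts, from which neuroblastoma comes, the change from division to outgrowth of neurites therefore touches both sets. The comparisons ask how far each set moved in cells held back from division, at the early time and later.

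The libraries held 13459219 to 25441812 counts, with a median of 18494500, so that a CPM, a gene's counts scaled by the library total, stood for about 18.5 counts at a value of 1. In IMR-32 replicate 5 stood apart in all 3 groups by a chi-square of the counts, and so did replicate 2 at 24 h. The replicate 5 control was the highest of the 5 controls for 11 of 13 mitotic kinesins and the lowest for 10 of 16 transport kinesins, with the lowest sum of adrenergic and the highest sum of mesenchymal markers of its group, and at 5 days replicate 5 was again the highest for 11 of 13 mitotic kinesins. In SK-N-BE(2)C replicates 3 to 5 lay close together in the controls and at 24 h, and at 7 days replicates 4 and 5 did. Replicates 1 and 3 at 7 days were the furthest apart there, with a chi-square per degree of freedom of 77.8. In SH-SY5Y the largest was 42.1, between replicates 1 and 5 at 5 days. Fits without replicate 5 of IMR-32, and with replicates 1, 2 and 5 only of SK-N-BE(2)C, are given beside the calls they change, here or in the account of the alternatives. Values below are CPM over all genes of a library, with the 5 libraries of a group always in the order of replicates 1 to 5 and errors as SD (n = 5). A gene was called higher or lower where its edgeR adjusted p was under 0.05 and its log2 fold change was beyond 0.5 either way. In bulk samples fewer cells of a type and less RNA per cell cannot be told apart.

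The low-count filter kept 39 of the 42 kinesins in IMR-32, 37 in SH-SY5Y and 34 in SK-N-BE(2)C. KIF4B, KIF25 and KIF28P were tested in no line, KIF12 and KIF19 passed in IMR-32 alone, and KIFC1, KIF6 and KIF21B missed the filter in SK-N-BE(2)C, where the untreated cells held 0.0673, 0.251 and 0.469 CPM. KIF4B, which lacks introns and is nearly identical to KIF4A, can share reads with it.

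The mitotic kinesins fell together at 24 h and were still below the controls at the longer time. All 12 tested in IMR-32, all 12 in SH-SY5Y and all 11 in SK-N-BE(2)C were called lower at 24 h, where 10.5%, 11.0% and 10.6% of all genes tested were. The same counts were called lower at the longer time, against 15.5%, 17.3% and 22.3% of all genes. Their median log2 fold change at 24 h was -2.76 in IMR-32, -2.84 in SH-SY5Y and -2.24 in SK-N-BE(2)C, where the medians of all genes tested were 0.060, 0.037 and 0.023. At the longer time it was -1.18, -2.02 and -1.81, beside 0.0028, 0.011 and 0.012 for all genes. In each line the 24 h libraries of every tested member lay below all 5 controls, where those of 13.8%, 18.1% and 18.1% of all genes did, and at the longer time the libraries of KIFC1 in IMR-32 overlapped the controls. KIFC1 in SH-SY5Y passed the filter through its controls alone, so that it had to come out lower, and it adds nothing to the counts of that line, which are 11 of 11 without it.

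**Figure D1:**
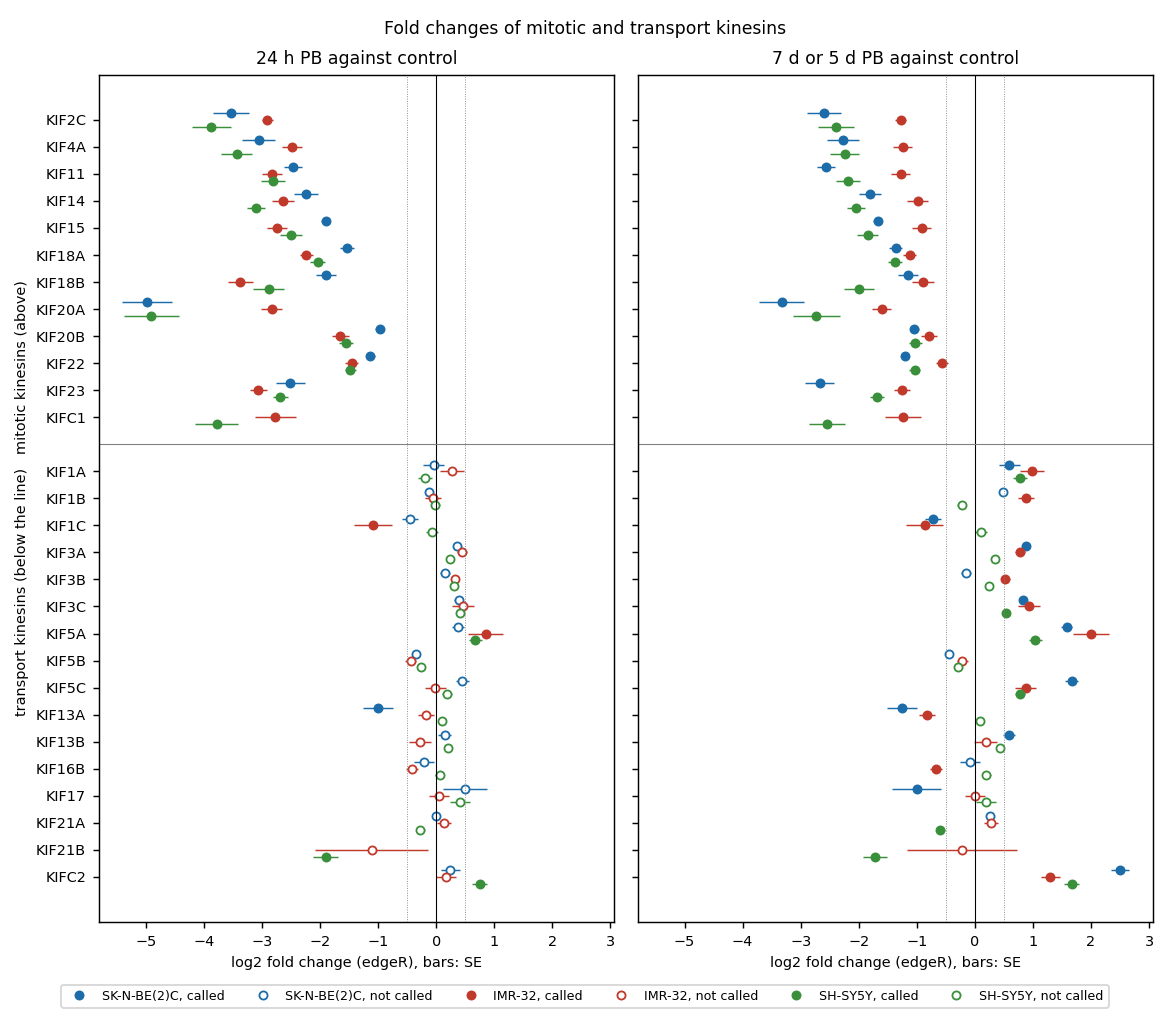
Log2 fold change against control of each tested mitotic kinesin (above the line) and transport kinesin (below it), at 24 h on the left and after 7 d or 5 d on the right, by line, with SE bars, filled points for calls and dotted lines at the fold limit of 0.5. All mitotic points sit left of the limit in both panels, while KIF1A, KIF3C, KIF5A, KIF5C and KIFC2 are filled to the right in all 3 lines in the right panel only.

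KIF20A, which takes the chromosomal passenger complex to the central spindle before cytokinesis, had the largest mean drop at 24 h over the 3 lines, although in IMR-32 KIF18B, KIF23 and KIF2C had larger ones. KIF20A in SK-N-BE(2)C was at 157, 156, 147, 150.01 and 146 CPM in the controls, 7.29, 5.896, 3.56, 3.904 and 3.49 CPM at 24 h and 30.6, 7.29, 4.58, 19.1 and 16.8 CPM at 7 days. KIF20A in IMR-32 was at 155, 162, 159.8, 155 and 202 CPM in the controls, 25.5, 20.2, 24.2, 24.97 and 18.5 CPM at 24 h and 51.4, 39.3, 57.4, 45.6 and 82.1 CPM at 5 days. KIF20A in SH-SY5Y was at 165, 129.9, 155, 141 and 156 CPM in the controls, 3.14, 2.21, 2.85, 7.38 and 8.901 CPM at 24 h and 5.77, 15.01, 25.8, 38.5 and 32.7 CPM at 5 days. The controls of each line lay far above the treated libraries, with replicate 5 set apart as the highest in IMR-32, and the libraries of the longer time in SK-N-BE(2)C and SH-SY5Y were spread widely and overlapped those of 24 h, whereas in IMR-32 they lay above them. The log2 fold change of KIF20A at 24 h was -2.83 (SE 0.18, edgeR adjusted p = 6e-09) in IMR-32, -4.903 (SE 0.47, edgeR adjusted p = 1.3e-06) in SH-SY5Y and -4.98 (SE 0.43, edgeR adjusted p = 3.5e-07) in SK-N-BE(2)C. At the longer time it was -1.61 (SE 0.17, edgeR adjusted p = 3.1e-06) in IMR-32, -2.73 (SE 0.41, edgeR adjusted p = 4.2e-05) in SH-SY5Y and -3.33 (SE 0.38, edgeR adjusted p = 1.9e-06) in SK-N-BE(2)C. These responses differed between lines at 24 h (edgeR adjusted p = 0.0044) and at the longer time (edgeR adjusted p = 0.012), the change being smallest in IMR-32. In GRCh37, 206 bases of the KIF20A exons lie opposite exons of BRD8 and CDC23, whose reads can be told apart only by strand. The same holds, among the kinesins named, for 2446 bases of KIF2A (opposite DIMT1), 864 of KIF13B, 830 of KIF27, 589 of KIF7 (opposite TICRR), 561 of KIF22 and 538 of KIFC3, and for fewer than 250 each of KIF23, KIF2C, KIF1C, KIF4A, KIF3B and KIF3A.

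KIF2C, a centromere kinesin that does not walk but shortens microtubule ends, came next. KIF2C in SK-N-BE(2)C measured 88.1, 72.9, 69.2, 68.1 and 68.3 CPM in the controls, 9.14, 7.47, 4.46, 4.35 and 6.55 CPM at 24 h and 20.8, 7.34, 6.09, 15.7 and 12.8 CPM at 7 days. KIF2C in IMR-32 measured 123, 131, 131, 127 and 147 CPM in the controls, 18.04, 16.3, 16.6, 18.2 and 15.97 CPM at 24 h and 52.9, 44.9, 55.8, 54.6 and 65.6 CPM at 5 days. KIF2C in SH-SY5Y measured 133, 109.8, 127, 122 and 125 CPM in the controls, 7.06, 6.41, 6.47, 11.4 and 10.7 CPM at 24 h and 8.79, 16.2, 25.3, 32.6 and 40.5 CPM at 5 days. No treated library reached a control of its line. At 24 h the log2 fold changes of KIF2C were -2.91 (SE 0.10, edgeR adjusted p = 1.7e-11) in IMR-32, -3.87 (SE 0.34, edgeR adjusted p = 5.6e-07) in SH-SY5Y and -3.54 (SE 0.31, edgeR adjusted p = 3.9e-07) in SK-N-BE(2)C, and at the longer time -1.28, -2.39 and -2.601 in the same order. KIF4A binds chromosome arms in mitosis and, with PRC1, sets the length of the central spindle. KIF4A in SK-N-BE(2)C counted 104, 107, 104, 103 and 105 CPM in the controls, 18.8, 16.3, 8.69, 10.04 and 9.75 CPM at 24 h and 36.6, 17.7, 10.4, 23.3 and 23.6 CPM at 7 days. KIF4A in IMR-32 counted 71.00, 72.4, 77.4, 72.96 and 95.3 CPM in the controls, 14.2, 11.5, 12.5, 15.9 and 13.9 CPM at 24 h and 30.9, 23.2, 34.05, 28.2 and 49.1 CPM at 5 days. KIF4A in SH-SY5Y counted 195, 141, 175, 157 and 158 CPM in the controls, 15.2, 10.1, 14.2, 20.04 and 16.9 CPM at 24 h and 17.7, 26.9, 39.8, 44.2 and 54.00 CPM at 5 days. The SK-N-BE(2)C controls of KIF4A lay within a narrow band, and replicate 5 was the highest IMR-32 control. Its log2 fold change at 24 h was -2.47 (SE 0.17, edgeR adjusted p = 1.9e-08) in IMR-32, -3.44 (SE 0.27, edgeR adjusted p = 1.4e-07) in SH-SY5Y and -3.06 (SE 0.29, edgeR adjusted p = 8.8e-07) in SK-N-BE(2)C. At the longer time it was -1.24, -2.24 and -2.28, called lower in each line.

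**Figure D2:**
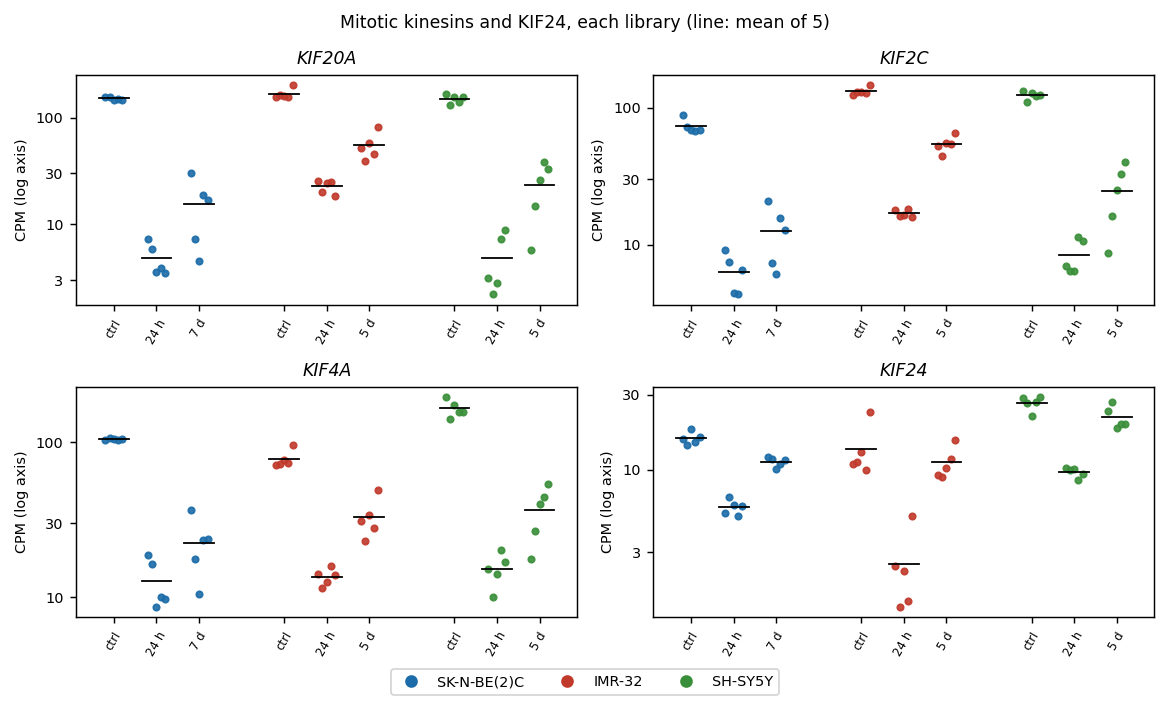
CPM (log axis) of KIF20A, KIF2C, KIF4A and KIF24 in each of the 45 libraries, by line and group, with a line at the mean of 5. The 24 h libraries sit below all controls in every panel, and KIF24 returns toward the controls at the longer time.

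The motors that set up the spindle fell in every line in which they were tested, with log2 fold changes given here for IMR-32 first, then SH-SY5Y and last SK-N-BE(2)C. KIF11, the motor that pushes the spindle poles apart, was at 177 ± 40.01 CPM in IMR-32 controls and 24.3 ± 4.35 CPM at 24 h, at 185 ± 18.9 and 26.6 ± 3.26 CPM in SH-SY5Y and at 188 ± 9.53 and 34.7 ± 3.86 CPM in SK-N-BE(2)C. The fold changes of KIF11 were -2.83, -2.81 and -2.47 after 24 h, then -1.28, -2.18 and -2.57 at the longer time. For KIF15, which can keep the spindle bipolar beside KIF11, they were -2.75, -2.51 and -1.905 after 24 h, then -0.92, -1.85 and -1.67 at the longer time. KIFC1, a minus-end motor that focuses spindle poles, was listed at 2.402 CPM in IMR-32 and 1.56 CPM in SH-SY5Y controls and changed at 24 h by -2.77 and -3.78. At 24 h its libraries held 3 to 9 counts in IMR-32 and 1 to 3 counts in SH-SY5Y, all under the level of the filter, so the sizes of both changes are uncertain, and 424 bases of its exons lie opposite RPL12P1. The motors of chromosome movement come next. KIF18A, which keeps chromosomes near the spindle equator, had fold changes of -2.24, -2.04 and -1.54 after 24 h, then -1.12, -1.38 and -1.37 at the longer time. Those of KIF18B, which shortens astral microtubules, were -3.37, -2.88 and -1.89 after 24 h, then -0.89, -1.9995 and -1.15 at the longer time. The chromosome-bound KIF22 had the smallest changes at the longer time in IMR-32, with -1.46, -1.48 and -1.13 after 24 h, then -0.57, -1.04 and -1.21 at the longer time. Without the replicate 5 control the IMR-32 value of KIF22 at the longer time was -0.49, short of the fold limit. The motors of cytokinesis behaved alike in their calls. KIF23, the motor subunit of centralspindlin with RACGAP1, had -3.06, -2.68 and -2.51 after 24 h, then -1.25, -1.69 and -2.67 at the longer time. KIF14, needed at the midbody, had -2.63, -3.11 and -2.24 after 24 h, then -0.99, -2.05 and -1.81 at the longer time. KIF20B had -1.65, -1.56 and -0.97 after 24 h, then -0.79, -1.02 and -1.04 at the longer time, and its change at 24 h in SK-N-BE(2)C was the smallest of the class in that line.

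Between 24 h and the longer time many mitotic kinesins rose again, and a difference between lines was not tested for this comparison. Called higher at the longer time than at 24 h were 12 of 12 in IMR-32, 10 of 12 in SH-SY5Y and 4 of 11 in SK-N-BE(2)C (KIF18B, KIF20A, KIF2C and KIF4A), where 10.8%, 10.5% and 17.5% of all genes were called higher. The median log2 difference was 1.54, 0.94 and 0.23. In IMR-32 the 5 d libraries of all 12 lay above every 24 h library, in SH-SY5Y those of 4 of 12 did and in SK-N-BE(2)C those of none, where those of 14.1%, 15.8% and 19.1% of all genes did. In SH-SY5Y the summed CPM of the class at 5 days climbed over replicates 1 to 5, at 229, 324, 399, 463 and 499. The sum of replicate 1 lay within the 190 to 240 CPM of the 24 h libraries. KIF18B showed the largest difference in IMR-32, 2.48 (SE 0.20, edgeR adjusted p = 5.1e-07), where it measured 11.1 ± 2.98 CPM at 24 h and 64.1 ± 10.6 CPM at 5 days against 118 ± 31.1 CPM in the controls. KIF11 and KIF23 in SK-N-BE(2)C had log2 differences of -0.10 and -0.16, not called. With replicates 1, 2 and 5 only, the SK-N-BE(2)C values of KIF2C (0.81, edgeR adjusted p = 0.075) and KIF4A (0.78, edgeR adjusted p = 0.055) missed the limit, which left 2 of 11, and leaving out single libraries gave 2 to 5. MKI67, a general mark of cycling cells, had 411 to 777 CPM in IMR-32 controls, 28.9 to 85.8 CPM at 24 h and 186 to 293 CPM at 5 days. Its ranges in SH-SY5Y were 524 to 820.4, 11.8 to 38.4 and 11.3 to 116 CPM, and those in SK-N-BE(2)C 626 to 818, 24.4 to 57.04 and 12.3 to 147 CPM, and the part of fewer cycling cells in the kinesin values was not tested.

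The promoters of the mitotic kinesins shared letters that those of the transport kinesins mostly lacked. RefSeq promoters of GRCh38.p14, from 250 bases before to 50 bases after the start, were searched on both strands for CHR letters (TTTGAA or TTCGAA, the cell cycle homology region of genes expressed late in the cycle), CCAAT, E2F letters (TTTCCCGC, TTTGGCGC or TTTCGCGC), the cAMP response element (TGACGTCA) and a partial REST site (GGACAGC). CHR letters lay in 12 of 14 promoters of the mitotic kinesins (85.7%), or 11 of 13 genes, as the 2 windows of KIF22 overlap and hold the same letters, in 1 of 17 of the transport class (5.88%), in 1 of 11 of the others (9.09%) and in 16.4% of the 35116 promoters of the whole table. CCAAT lay in 11 of 14 (78.6%), 5 of 17 (29.4%), 4 of 11 (36.4%) and 34.6%. The mitotic counts of CHR letters and of CCAAT include KIF4B, tested in no line, whose promoter resembles that of KIF4A over a long stretch. E2F letters were in 1 mitotic promoter, that of KIF15, in no transport promoter and in 2.74% of all, and the cAMP response element in 1 mitotic promoter (KIF15), in 2 transport promoters (KIF1A and KIF5C) and in 1.85% of all. The partial REST site was in the promoter of KIF2C and in no transport promoter, against 6.03% of all promoters. The 150 bases up to the base before the start are shown for 8 genes, chosen after the matches were seen, in lower case with every match in capitals: 3 mitotic kinesins with CCAAT followed by CHR letters, the 2 without CHR letters, and 3 transport kinesins, of which KIF5C was called higher in all lines, KIF3A holds no match and KIF5B is the transport kinesin with CHR letters. They are, on the strand of the gene, KIF4A (chrX:70289954-70290103, plus strand), KIF11 (chr10:92592980-92593129, plus strand), KIF23 (chr15:69414199-69414348, plus strand), KIF20A (chr5:138178962-138179111, plus strand), KIF2C (chr1:44739687-44739836, plus strand), KIF5C (chr2:148875077-148875226, plus strand), KIF3A (chr5:132737547-132737696, minus strand) and KIF5B (chr10:32056426-32056575, minus strand).
KIF4A: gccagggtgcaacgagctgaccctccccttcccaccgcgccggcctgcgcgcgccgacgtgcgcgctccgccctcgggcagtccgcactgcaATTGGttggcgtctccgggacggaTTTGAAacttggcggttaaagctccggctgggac
KIF11: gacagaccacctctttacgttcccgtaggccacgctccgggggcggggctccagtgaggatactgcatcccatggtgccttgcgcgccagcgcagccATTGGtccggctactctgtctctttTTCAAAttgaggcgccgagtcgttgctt
KIF23: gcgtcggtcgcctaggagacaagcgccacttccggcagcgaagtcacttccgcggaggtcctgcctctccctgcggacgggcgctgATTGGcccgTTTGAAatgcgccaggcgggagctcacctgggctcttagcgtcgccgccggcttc
KIF20A: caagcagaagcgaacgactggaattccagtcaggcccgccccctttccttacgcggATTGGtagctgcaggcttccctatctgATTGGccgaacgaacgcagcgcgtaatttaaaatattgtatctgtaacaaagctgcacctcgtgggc
KIF2C: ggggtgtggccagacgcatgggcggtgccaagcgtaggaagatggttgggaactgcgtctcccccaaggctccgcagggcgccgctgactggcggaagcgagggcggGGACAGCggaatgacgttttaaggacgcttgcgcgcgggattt
KIF5C: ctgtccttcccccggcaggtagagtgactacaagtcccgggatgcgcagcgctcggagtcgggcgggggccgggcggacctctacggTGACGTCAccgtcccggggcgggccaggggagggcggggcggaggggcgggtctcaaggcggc
KIF3A: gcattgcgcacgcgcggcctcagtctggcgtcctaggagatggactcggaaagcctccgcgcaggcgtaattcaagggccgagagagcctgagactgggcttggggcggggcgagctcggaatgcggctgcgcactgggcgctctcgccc
KIF5B: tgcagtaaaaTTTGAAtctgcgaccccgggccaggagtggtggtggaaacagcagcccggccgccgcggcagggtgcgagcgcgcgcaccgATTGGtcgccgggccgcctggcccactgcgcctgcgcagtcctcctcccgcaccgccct

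In KIF4A, KIF11 and KIF23 the CCAAT and CHR letters stand next to each other, a short stretch apart, close to the start, whereas in KIF5B a long stretch separates them. KIF20A has 2 CCAAT boxes and no CHR letters in this window, and KIF2C has neither. Of 2 KIF5C starts, the one shown holds the cAMP response element. A match in these windows is a description of letters and was not tested for binding.

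The transport kinesins, in contrast, showed few calls at 24 h and a rise of several neuron-enriched members at the longer time. At 24 h, 1 of 16 tested was called higher in IMR-32 (KIF5A), 2 of 16 in SH-SY5Y (KIF5A and KIFC2) and 0 of 15 in SK-N-BE(2)C, where 7.87%, 10.5% and 10.9% of all genes tested were, and 1 in each line was called lower (KIF1C, KIF21B and KIF13A in that order), against 10.5%, 11.0% and 10.6% of all genes. The count of 0, from edgeR's quasi-likelihood test, was also 0 with DESeq2, and 4 of those 15 were higher at an unadjusted p under 0.05. At the longer time 8 of 16, 5 of 16 and 7 of 15 were called higher, against 16.6%, 18.6% and 24.5% of all genes, and 3, 2 and 3 were called lower, against 15.5%, 17.3% and 22.3%. After 24 h their median log2 fold changes were 0.017, 0.14 and 0.15, to be set beside 0.40, 0.22 and 0.48 at the longer time. KIF1A, KIF3C, KIF5A, KIF5C and KIFC2 were, at the longer time, called higher in each of the lines, of which KIF3C in SH-SY5Y was not called without 5 d replicate 1. The neuron-enriched KIF21B was instead called lower then in SH-SY5Y (-1.72), was not called in IMR-32 and was not tested in SK-N-BE(2)C. From 24 h to the longer time, 5 of 16, 3 of 16 and 6 of 15 rose, where 10.8%, 10.5% and 17.5% of all genes were called higher, and KIF13A fell in IMR-32 and KIF17 in SK-N-BE(2)C, where 8.86%, 6.23% and 14.4% of all genes were called lower. KIF1A, KIF5C and KIFC2 rose in that comparison in all 3 lines, but with replicates 1, 2 and 5 only the SK-N-BE(2)C value of KIF1A was 0.51 (edgeR adjusted p = 0.095), not a call.

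The kinesin-1 heavy chains moved apart. KIF5A and KIF5C are the neuron-enriched heavy chains of the motor that carries mitochondria, vesicles and neurofilaments, and KIF5B is the form found in most cells. KIF5A in SK-N-BE(2)C was at 29.3, 25.5, 21.8, 24.7 and 20.1 CPM in the controls, 33.9, 29.99, 31.5, 33.4 and 32.4 CPM at 24 h and 63.1, 86.6, 78.9, 76.6 and 69.4 CPM at 7 days. KIF5A in IMR-32 stood at 109, 104, 106, 121 and 32.6 CPM in the controls, 204, 113, 206, 217 and 92.6 CPM at 24 h and 404, 452, 363, 415 and 283 CPM at 5 days. KIF5A in SH-SY5Y stood at 35.1, 31.03, 27.6, 34.7 and 26.4 CPM in the controls, 52.04, 54.6, 45.3, 46.4 and 50.8 CPM at 24 h and 72.8, 73.1, 54.8, 81.1 and 52.8 CPM at 5 days. All libraries of the longer time exceeded all controls in each line, and the replicate 5 control of IMR-32 was far below the other 4. The longer treatment changed KIF5A by 2.01 (SE 0.31, edgeR adjusted p = 0.00012) in IMR-32, 1.04 (SE 0.11, edgeR adjusted p = 3.1e-07) in SH-SY5Y and 1.58 (SE 0.10, edgeR adjusted p = 8e-10) in SK-N-BE(2)C on the log2 scale. At 24 h its log2 fold change was 0.86 (SE 0.30, edgeR adjusted p = 0.041) in IMR-32, 0.67 (SE 0.11, edgeR adjusted p = 7.9e-05) in SH-SY5Y and 0.38 (SE 0.10, edgeR adjusted p = 0.0044) in SK-N-BE(2)C, called in IMR-32 and SH-SY5Y. The IMR-32 call at 24 h was lost in 10 of 15 fits that left out 1 library, with values from 0.64 to 1.01, while without replicate 5 of all groups the value was 0.79 (edgeR adjusted p = 0.00041). Of the KIF5A exons, 71 bases lie opposite DCTN2.

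KIF5C in SK-N-BE(2)C was found at 114, 114, 86.3, 84.6 and 85.1 CPM in the controls, 157, 158, 122, 125 and 116 CPM at 24 h and 326, 331, 297, 314 and 323 CPM at 7 days. KIF5C in IMR-32 was found at 787, 812, 744, 798 and 439 CPM in the controls, 811, 568, 798, 844 and 416 CPM at 24 h and 1329, 1469, 1224, 1348 and 1251 CPM at 5 days. KIF5C in SH-SY5Y was found at 270.00, 244, 198, 255 and 232 CPM in the controls, 305, 298, 232, 280.3 and 259 CPM at 24 h and 429.8, 471, 422, 437 and 389 CPM at 5 days. Every 7 d or 5 d library lay above every control and every 24 h library of its line, and in SK-N-BE(2)C the 24 h libraries also cleared the controls. KIF5C rose at the longer time by 0.88 (SE 0.18, edgeR adjusted p = 0.001) in IMR-32, 0.77 (SE 0.084, edgeR adjusted p = 3.2e-07) in SH-SY5Y and 1.67 (SE 0.11, edgeR adjusted p = 2.9e-09) in SK-N-BE(2)C. At 24 h the values were -0.013, 0.19 and 0.45, not called. The rise at the longer time differed between lines for KIF5C (edgeR adjusted p = 0.00042) and for KIF5A (edgeR adjusted p = 0.029), being largest in SK-N-BE(2)C for the first and in IMR-32 for the second. Without replicate 5 the IMR-32 rises were 0.77 and 1.88.

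KIF5B in SK-N-BE(2)C reached 460.2, 509, 549.7, 526 and 520.2 CPM in the controls, 381, 415, 436, 425 and 418 CPM at 24 h and 382, 377, 368, 404 and 407 CPM at 7 days. KIF5B in IMR-32 reached 309, 339.8, 327, 304 and 374 CPM in the controls, 237, 210.04, 246, 222 and 270.2 CPM at 24 h and 251, 273, 287, 269.7 and 358 CPM at 5 days. KIF5B in SH-SY5Y reached 498, 455, 472, 446 and 474 CPM in the controls, 401, 403, 386, 399 and 381 CPM at 24 h and 412, 413, 408, 413 and 372 CPM at 5 days. The 24 h libraries of KIF5B lay below all controls in each line, but every change was under the fold limit. The log2 fold change of KIF5B was -0.44, -0.26 and -0.34 at 24 h, then -0.21, -0.29 and -0.45. Divided by the length of the merged exons in GRCh37, which does not follow the isoforms in use, KIF5B made up most of the kinesin-1 heavy chain signal in untreated SK-N-BE(2)C and SH-SY5Y and KIF5C the largest share in IMR-32. In SK-N-BE(2)C the KIF5B share of CPM per kilobase was 87.4% ± 2.36 in the controls, 80.3% ± 2.69 at 24 h and 61.9% ± 1.29 at 7 days. IMR-32 had 40.5% ± 8.72, 32.5% ± 8.397 and 21.97% ± 3.61, and SH-SY5Y had 73.7% ± 2.300, 66.5% ± 1.91 and 56.97% ± 1.099. KIF5C took 54.2% ± 7.03 of the IMR-32 controls and 64.1% ± 1.75 of the 5 d libraries, 23.9% ± 2.101 and 38.5% ± 0.864 in SH-SY5Y, and 10.6% ± 2.04 and 32.3% ± 1.08 in SK-N-BE(2)C. KIF5A stayed the smallest of the 3 in each group, at most 13.9% ± 1.97 in IMR-32 after 5 days.

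**Figure D3:**
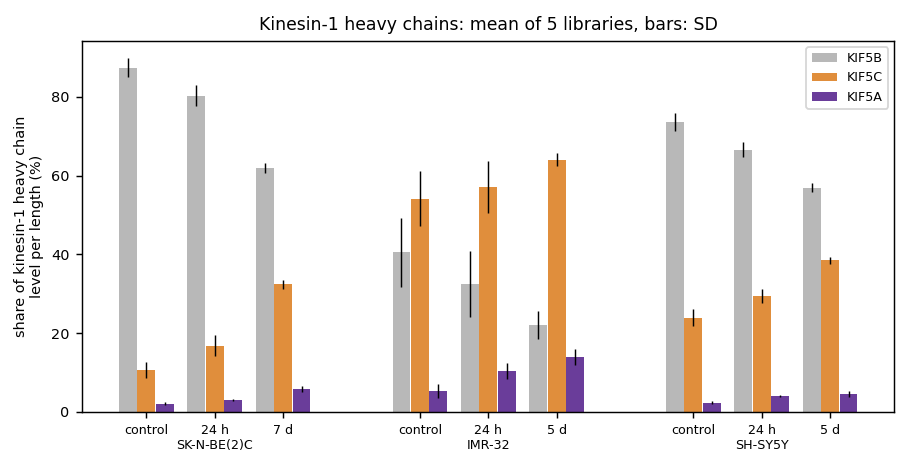
Share of KIF5A, KIF5B and KIF5C in their summed CPM per kilobase of merged exon, in percent, as means of 5 libraries by line and group. Between the controls and the longer time the KIF5B share goes from 40.5% to 21.97% for IMR-32, from 73.7% to 56.97% for SH-SY5Y and from 87.4% to 61.9% for SK-N-BE(2)C.

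In kinesin-2, KIF3A pairs with KIF3B or with the neuron-enriched KIF3C, and the adaptor KIFAP3 joins the pair to cargo in cilia, cell bodies and axons. KIF3A in SK-N-BE(2)C amounted to 38.95, 45.3, 45.7, 42.4 and 38.5 CPM in the controls, 52.6, 60.7, 55.8, 54.6 and 53.1 CPM at 24 h and 79.5, 91.5, 79.8, 74.1 and 76.1 CPM at 7 days. KIF3A in IMR-32 amounted to 66.6, 71.8, 69.2, 68.95 and 55.9 CPM in the controls, 91.5, 93.3, 92.7, 85.9 and 72.4 CPM at 24 h and 104, 121, 114, 126 and 109 CPM at 5 days. KIF3A in SH-SY5Y amounted to 73.1, 62.96, 64.1, 59.96 and 62.9 CPM in the controls, 77.4, 79.5, 73.4, 78.8 and 74.6 CPM at 24 h and 89.5, 93.7, 87.1, 81.7 and 78.8 CPM at 5 days. Treated libraries of both times lay above all controls in each line. KIF3A changed at the longer time by 0.78 (SE 0.086, edgeR adjusted p = 5e-06) in IMR-32, 0.34 (SE 0.057, edgeR adjusted p = 3.9e-05) in SH-SY5Y and 0.88 (SE 0.069, edgeR adjusted p = 1.1e-08) in SK-N-BE(2)C, called in IMR-32 and SK-N-BE(2)C, and the lines differed (edgeR adjusted p = 0.0002). The 24 h values were 0.44, 0.24 and 0.36, under the fold limit.

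KIF3B in SK-N-BE(2)C lay at 108, 122, 103, 97.9 and 97.7 CPM in the controls, 125, 135, 113, 114 and 116 CPM at 24 h and 116, 90.3, 91.9, 94.1 and 96.4 CPM at 7 days. KIF3B in IMR-32 lay at 74.5, 74.4, 71.3, 75.2 and 72.98 CPM in the controls, 95.04, 74.4, 90.8, 98.2 and 90.6 CPM at 24 h and 114, 116, 103, 109 and 91.7 CPM at 5 days. KIF3B in SH-SY5Y lay at 155, 157, 149.9, 144 and 141 CPM in the controls, 191, 197, 183, 176 and 187 CPM at 24 h and 200.3, 196, 189, 182 and 165 CPM at 5 days. Both treated groups exceeded the controls in SH-SY5Y, the 5 d libraries did in IMR-32, and in SK-N-BE(2)C the groups overlapped. Its log2 fold change at the longer time was 0.53 (SE 0.073, edgeR adjusted p = 3.6e-05) in IMR-32, 0.25 (SE 0.052, edgeR adjusted p = 0.00044) in SH-SY5Y and -0.16 (SE 0.086, edgeR adjusted p = 0.12) in SK-N-BE(2)C, with a difference between lines (edgeR adjusted p = 6.9e-06). The IMR-32 call is close to the fold limit, and it was not called without 5 d replicate 1 (0.49), without 5 d replicate 2 or in 1 fit of all lines (0.49). At 24 h the values of KIF3B were 0.33, 0.31 and 0.16.

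KIF3C in SK-N-BE(2)C gave 102, 89.8, 81.6, 76.01 and 83.4 CPM in the controls, 122, 113, 109.8, 116 and 119 CPM at 24 h and 146, 165, 178, 154 and 148 CPM at 7 days. KIF3C in IMR-32 gave 94.6, 98.98, 83.3, 103 and 44.2 CPM in the controls, 142, 88.4, 116, 136 and 85.5 CPM at 24 h and 179, 180.5, 148, 165 and 144 CPM at 5 days. KIF3C in SH-SY5Y gave 168, 167, 159, 158 and 146 CPM in the controls, 235, 224, 213, 189 and 212 CPM at 24 h and 284, 256, 223, 247 and 205 CPM at 5 days. The longer treatment put all libraries of KIF3C above all controls in each line, and the replicate 5 control of IMR-32 was far below the rest of its group. KIF3C rose by 0.94 (SE 0.19, edgeR adjusted p = 0.00091) in IMR-32, 0.54 (SE 0.072, edgeR adjusted p = 3.7e-06) in SH-SY5Y and 0.83 (SE 0.075, edgeR adjusted p = 5.5e-08) in SK-N-BE(2)C, and a difference between lines was not found (edgeR adjusted p = 0.24). The SH-SY5Y call is close to the fold limit, and without 5 d replicate 1 the value was 0.48. At 24 h it had 0.47, 0.41 and 0.39, not called. Per kilobase, the KIF3C share of kinesin-2 in the controls and at the longer time was 37.2% ± 6.65 and 42.7% ± 1.72 for IMR-32, 42.4% ± 0.754 and 46.8% ± 1.902 for SH-SY5Y, and 36.5% ± 2.54 and 47.2% ± 3.04 for SK-N-BE(2)C. The KIF3B share was 34.97% ± 5.21 and 29.2% ± 0.842, 41.6% ± 0.5398 and 37.7% ± 1.15, and 46.8% ± 1.54 and 30.5% ± 3.37.

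**Figure D4:**
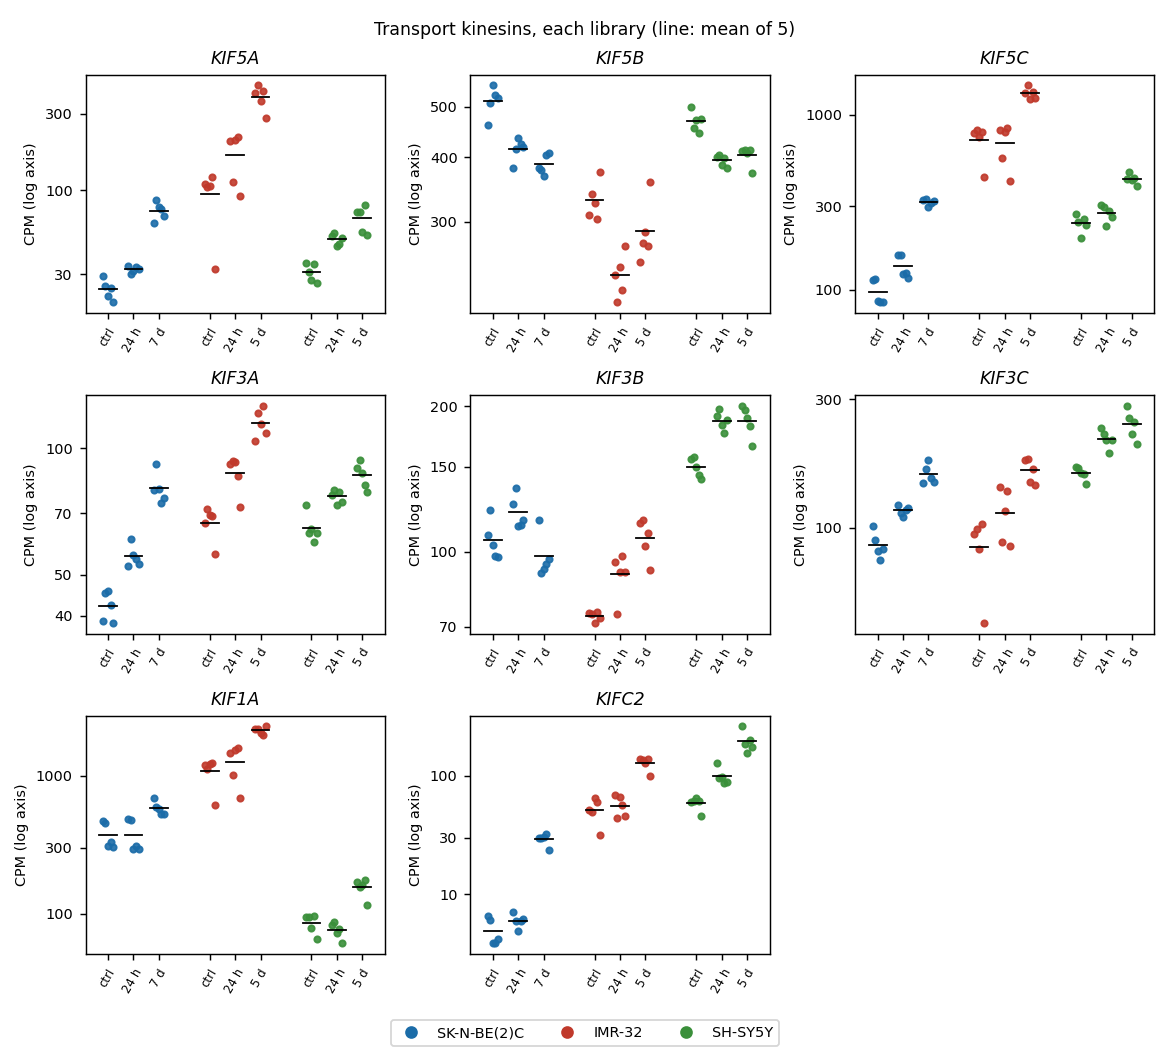
CPM (log axes, a scale per gene) of 8 transport kinesins in each of the 45 libraries, by line and group, with a line at the mean of 5. KIF5A, KIF5C, KIF3A, KIF3C, KIF1A and KIFC2 sit above all controls at the longer time in each line, KIF5B does not, and replicate 5 is the low IMR-32 control of KIF5A, KIF5C, KIF3C and KIF1A.

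Of the kinesin-3 family, KIF1A carries synaptic vesicle precursors and dense core vesicles down the axon. KIF1A in SK-N-BE(2)C came to 471, 455, 311, 328 and 306 CPM in the controls, 486, 473, 294, 307 and 292 CPM at 24 h and 689, 588, 576, 525 and 523 CPM at 7 days. KIF1A in IMR-32 came to 1186, 1122, 1219.9, 1224 and 609 CPM in the controls, 1447, 1012, 1540.5, 1579 and 684 CPM at 24 h and 2184, 2177, 2023, 1985 and 2276 CPM at 5 days. KIF1A in SH-SY5Y came to 94.6, 94.9, 77.9, 96.4 and 64.98 CPM in the controls, 82.5, 86.5, 72.7, 77.4 and 60.8 CPM at 24 h and 168, 155, 160.2, 174 and 116 CPM at 5 days. The 24 h libraries overlapped the controls in each line, and the libraries of the longer time lay above both. KIF1A rose at the longer time by 0.98 (SE 0.21, edgeR adjusted p = 0.0013) in IMR-32, 0.78 (SE 0.12, edgeR adjusted p = 2.9e-05) in SH-SY5Y and 0.59 (SE 0.18, edgeR adjusted p = 0.0083) in SK-N-BE(2)C, and from 24 h on by 0.71, 0.97 and 0.63. At 24 h it had 0.27, -0.19 and -0.045, not called. In SK-N-BE(2)C, replicates 1, 2 and 5 alone gave 0.50 (edgeR adjusted p = 0.08) at the longer time, which is not a call, and in IMR-32 the value without replicate 5 was 0.81. A difference between the lines in this rise was not found (edgeR adjusted p = 0.48). Per kilobase, KIF1A made up 72.9% ± 7.405 of the kinesin-3 signal in IMR-32 controls, 11.7% ± 1.54 in SH-SY5Y controls and 52.9% ± 5.91 in SK-N-BE(2)C controls, and 82.8% ± 1.302, 17.7% ± 1.86 and 60.9% ± 3.05 at the longer time.

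Of the other kinesin-3 genes, values are again for IMR-32 first and SK-N-BE(2)C last, and the responses at the longer time differed between lines for all but KIF13B. KIF1B, a carrier of mitochondria and synaptic vesicle precursors whose gene lies in the 1p region often lost in neuroblastoma, went from 160.1 ± 31.1 to 297 ± 30.6 CPM in IMR-32 at 5 days. Its log2 fold changes were -0.049, -0.016 and -0.12 after 24 h, then 0.88, -0.22 and 0.48 at the longer time, called at the longer time in IMR-32, and the lines differed (edgeR adjusted p = 1.3e-06). KIF1C, a widely expressed carrier of dense core vesicles and integrins, had -1.09, -0.064 and -0.45 after 24 h, then -0.87, 0.10 and -0.72 at the longer time. It was called lower at 24 h in IMR-32 and at the longer time there and in SK-N-BE(2)C, but without replicate 5 the IMR-32 value at 5 days was -0.40, under the fold limit, and that at 24 h was -0.79. Without the replicate 5 control alone, which held 46.9 CPM where the other controls held 14.4 to 17.4, the 24 h value was -0.58. KIF13A, which moves recycling endosomes, had -0.17, 0.10 and -0.999 after 24 h, then -0.82, 0.10 and -1.25 at the longer time, called lower in SK-N-BE(2)C at both times and in IMR-32 at the longer time, though the SK-N-BE(2)C level was 2.08 ± 0.219 CPM in the controls. The difference between lines for KIF13A held at 24 h (edgeR adjusted p = 0.0034) and at the longer time (edgeR adjusted p = 1.7e-06). KIF13B had -0.28, 0.20 and 0.15 after 24 h, then 0.18, 0.43 and 0.59 at the longer time, called higher in SK-N-BE(2)C at 7 days. KIF16B, an early endosome motor, had -0.42, 0.059 and -0.21 after 24 h, then -0.68, 0.19 and -0.083 at the longer time, called lower in IMR-32 at 5 days.

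KIFC2 is a minus-end directed motor found mainly in neurons, and it had the largest rise of the class in SK-N-BE(2)C and SH-SY5Y. KIFC2 in SK-N-BE(2)C registered 6.602, 6.01, 3.89, 3.86 and 4.16 CPM in the controls, 7.04, 5.896, 4.89, 5.97 and 6.16 CPM at 24 h and 29.7, 29.7, 30.1, 31.99 and 23.6 CPM at 7 days. KIFC2 in IMR-32 registered 51.5, 49.3, 64.1, 59.6 and 31.5 CPM in the controls, 68.1, 43.7, 66.1, 56.2 and 45.2 CPM at 24 h and 137, 134, 128, 137 and 99.1 CPM at 5 days. KIFC2 in SH-SY5Y registered 59.6, 60.9, 64.1, 60.9 and 45.3 CPM in the controls, 127, 95.2, 97.5, 86.7 and 87.9 CPM at 24 h and 259.6, 184, 154, 198 and 176 CPM at 5 days. After the longer treatment all libraries were above all controls and all 24 h libraries of their line, and in SH-SY5Y the 24 h libraries too were above the controls. The log2 fold change of KIFC2 at the longer time was 1.298 (SE 0.17, edgeR adjusted p = 1.9e-05) in IMR-32, 1.67 (SE 0.13, edgeR adjusted p = 2e-08) in SH-SY5Y and 2.51 (SE 0.15, edgeR adjusted p = 8.5e-10) in SK-N-BE(2)C, with a difference between lines (edgeR adjusted p = 0.00012). At 24 h the changes were 0.17, 0.75 and 0.24, called in SH-SY5Y. Of its 4447 exon bases, 791 lie opposite FOXH1. KIF17, a dendritic carrier of glutamate receptors, had 0.046, 0.41 and 0.49 after 24 h, then -0.00012, 0.20 and -1.005 at the longer time. It was called lower in SK-N-BE(2)C at 7 days, at 1.38 ± 0.448 CPM in the controls and 0.679 ± 0.383 CPM then, and the call was lost in 6 of 15 fits that left out 1 library (highest edgeR adjusted p = 0.096) and with replicates 1, 2 and 5 only (edgeR adjusted p = 0.15). KIF21A, a slow motor that restrains microtubule growth, was the most abundant transport kinesin of SK-N-BE(2)C by CPM, 725 ± 20.5, and had 0.13, -0.27 and 0.0040 after 24 h, then 0.28, -0.60 and 0.26 at the longer time, called lower in SH-SY5Y at 5 days. The lines differed there (edgeR adjusted p = 8.5e-07). KIF21B, its neuronal relative, was called lower in SH-SY5Y, from 4.92 ± 0.695 CPM in the controls to 1.33 ± 0.271 CPM at 24 h and 1.56 ± 0.581 CPM at 5 days, with changes of -1.9000 (SE 0.21, edgeR adjusted p = 8.7e-07) and -1.72 (SE 0.21, edgeR adjusted p = 1.1e-06). In IMR-32 the 24 h value of KIF21B was -1.11 (SE 0.98, edgeR adjusted p = 0.41), which became -1.305 (edgeR adjusted p = 0.0022) without replicate 5 and -1.23 (edgeR adjusted p = 0.00025) with the replicate as a block.

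Summed over the class, the mitotic kinesins and the transport kinesins differed in balance between controls and treated libraries. The 13 mitotic kinesins summed to 1206 ± 190.3, 213 ± 24.4 and 579.7 ± 91.6 CPM in the controls, at 24 h and at the longer time of IMR-32, to 1315 ± 101, 209.8 ± 20.96 and 383 ± 109 CPM in SH-SY5Y and to 1257 ± 15.7, 312 ± 38.5 and 364 ± 80.2 CPM in SK-N-BE(2)C. The 16 transport kinesins summed to 3382 ± 559, 3571 ± 746 and 5758 ± 263 CPM in IMR-32, 2233 ± 99.3, 2273 ± 116 and 2613 ± 155 CPM in SH-SY5Y, and 2213 ± 94.1, 2218 ± 85.9 and 2921 ± 39.3 CPM in SK-N-BE(2)C. Transport over mitotic, the ratio was 2.901 ± 0.767, 17.1 ± 4.25 and 10.2 ± 1.900 for IMR-32, 1.705 ± 0.1405, 10.9 ± 1.44 and 7.46 ± 2.86 for SH-SY5Y, and 1.76 ± 0.05502, 7.16 ± 0.608 and 8.35 ± 1.79 for SK-N-BE(2)C. The mitotic sum in the 24 h libraries and the longer libraries lay below all controls in each line, while the transport sums at 24 h overlapped the controls. In SH-SY5Y the ratios at the longer time ran from 4.76 to 12.03. Sums of CPM weigh long and abundant genes most and are given as a description, with no test.

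**Figure D5:**
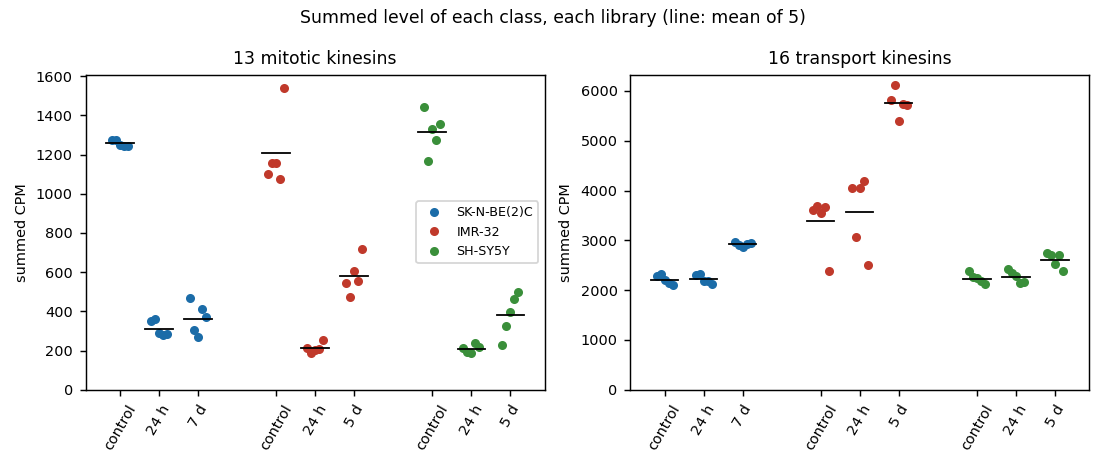
Summed CPM of the 13 mitotic kinesins and the 16 transport kinesins in each library (points), by line and group, with a line at the mean of 5. The mitotic sums at 24 h lie between 186 and 359 CPM, below every control, whereas the transport sums at 24 h overlap the controls and have their highest means at the longer time in each line.

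Among the other kinesins, KIF24 fell at 24 h in all 3 lines. KIF24 sits at the mother centriole, shortens microtubules there and holds back the primary cilium. KIF24 in SK-N-BE(2)C stood at 15.8, 14.3, 18.2, 15.1 and 16.3 CPM in the controls, 5.34, 6.76, 5.97, 5.07 and 5.92 CPM at 24 h and 12.1, 11.7, 10.2, 10.9 and 11.6 CPM at 7 days. KIF24 in IMR-32 stood at 10.9, 11.2, 12.96, 10.03 and 23.4 CPM in the controls, 2.44, 1.35, 2.28, 1.47 and 5.14 CPM at 24 h and 9.31, 9.05, 10.3, 11.7 and 15.5 CPM at 5 days. KIF24 in SH-SY5Y stood at 28.8, 26.5, 21.9, 27.2 and 28.97 CPM in the controls, 10.3, 9.96, 10.2, 8.61 and 9.37 CPM at 24 h and 23.7, 27.1, 18.3, 19.5 and 19.6 CPM at 5 days. All 24 h libraries lay below all controls and below all libraries of the longer time, in each line, and by then the groups of IMR-32 and SH-SY5Y overlapped their controls. At 24 h KIF24 fell, with log2 fold changes of -2.41 (SE 0.34, edgeR adjusted p = 6e-05) in IMR-32, -1.47 (SE 0.11, edgeR adjusted p = 4.6e-09) in SH-SY5Y and -1.48 (SE 0.10, edgeR adjusted p = 8.9e-09) in SK-N-BE(2)C, and the lines differed (edgeR adjusted p = 0.037). It rose from 24 h to the longer time by 2.1004, 1.101 and 0.94, and against control it then had -0.31, -0.37 and -0.54, called in SK-N-BE(2)C alone. With replicates 1, 2 and 5 only that value was -0.44, not a call. Its promoter holds CHR letters just after the start and 3 CCAAT boxes, and of the other kinesins no further promoter held CHR letters, while 328 of its exon bases lie opposite UBAP1 and SERPINH1P1.

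Of the other kinesins, 2 of 11, 1 of 9 and 1 of 8 were called lower at 24 h, KIF24 among them in each line, and 3 of 11 higher in IMR-32, where 10.5%, 11.0% and 10.6% of all genes were called lower and, in IMR-32, 7.87% higher. KIF9, a gene of motile cilia, was called higher at the longer time in IMR-32 (0.61) and SH-SY5Y (0.70) and in IMR-32 at 24 h (0.70), with 0.014 in SK-N-BE(2)C, and 1048 of its exon bases lie opposite KIF9-AS1 and KLHL18. KIF2A, a microtubule depolymerase of spindle poles and growing axons that sits in the family of KIF2C, had -0.51, -0.30 and -0.21 after 24 h, then -0.10, -0.23 and 0.038 at the longer time, called lower in IMR-32 at 24 h only and not there without replicate 5 (-0.49). KIF7, a regulator of Hedgehog signalling at the tip of the cilium, had 0.50, 0.44 and 0.45 after 24 h, then 0.37, 0.078 and 0.34 at the longer time, and KIFC3, a minus-end motor at cell junctions, had 0.51, 0.35 and 0.16 after 24 h, then 0.094, 0.23 and -0.040 at the longer time, both called higher in IMR-32 at 24 h, close to the fold limit. Neither was called there with RLE factors, with DESeq2 or without the filter on low counts, and without replicate 5 KIF7 had 0.41, while KIFC3 lost the call in 7 of 15 fits that left out 1 library. KIF26A and KIF26B bind microtubules without stepping, and their log2 fold changes against control lay between -0.50 and 0.48, with KIF26B called lower in SH-SY5Y at 5 days. That call was lost in 8 of 15 fits that left out 1 library, which gave -0.57 to -0.46, whereas from 24 h to 5 days KIF26B fell there by a log2 difference of -0.61 (edgeR adjusted p = 3.1e-05) and was called in each of those fits. KIF12 in IMR-32 held 11 to 26 counts in the controls and 0 to 7 at 5 days and passed the filter through the controls alone, so that it had to come out lower, and KIF6, KIF19 and KIF27 had no call against control, though without replicate 5 KIF19 in IMR-32 was called lower at 5 days (-1.04, edgeR adjusted p = 0.0026).

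The difference of the responses between the 3 lines was tested in 1 fit of the 45 libraries. At 24 h it was called for 8 of 39 kinesins (5 of 12 mitotic, 1 of 16 transport and 2 of 11 other), where 9.43% of all genes were. At the longer time it was called for 24 of 39 (10 of 12, 11 of 16 and 3 of 11), near the 52.4% of all genes. Among the mitotic kinesins KIF18A (edgeR adjusted p = 0.44) and KIF20B (edgeR adjusted p = 0.46) were those without a call at the longer time. Among the transport kinesins, KIF1A, KIF3C, KIF5B, KIF13B and KIF21B had none then.

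The untreated lines differed in the levels of some kinesins of both classes, the mitotic class less often than all genes in each direction. Of 12 mitotic kinesins, 3 were called higher and 2 lower in untreated IMR-32 than in SK-N-BE(2)C, 3 and 2 when SH-SY5Y was set against SK-N-BE(2)C, and 1 and 2 when it was set against IMR-32, where 31.3% and 30.8%, 29.7% and 27.9%, and 27.7% and 26.6% of all genes were. Of 16 transport kinesins, 9 and 3, 8 and 2, and 4 and 5 were, beside the same shares of all genes. KIF1A stood highest in IMR-32 at 1072 ± 262 CPM, then SK-N-BE(2)C at 374 ± 81.6 and SH-SY5Y at 85.8 ± 13.9, with log2 differences of 1.499 (edgeR adjusted p = 3.6e-09) for IMR-32 against SK-N-BE(2)C and -2.33 (edgeR adjusted p = 1e-13) for SH-SY5Y against SK-N-BE(2)C. KIF5C followed another order, IMR-32, SH-SY5Y and SK-N-BE(2)C, with -1.76 (edgeR adjusted p = 2.9e-14) for SH-SY5Y against IMR-32 and 1.103 (edgeR adjusted p = 5.8e-09) for SH-SY5Y against SK-N-BE(2)C. KIF5A was higher in IMR-32 than in SK-N-BE(2)C by 1.95 (edgeR adjusted p = 1.4e-10), and SH-SY5Y differed from SK-N-BE(2)C by 0.15 (edgeR adjusted p = 0.53), under the fold limit. SK-N-BE(2)C lacked most of the KIFC2 and KIF13A signal of the others: KIFC2 was 10.2-fold higher in IMR-32 and 10.2-fold higher in SH-SY5Y, and KIF13A 23.8-fold and 21.6-fold. KIF1C and KIF13B were highest in SH-SY5Y, at 97.5 ± 10.9 and 78.4 ± 4.95 CPM. The replicate 5 control lowers the IMR-32 means of KIF1A, KIF5A and KIF5C and raises that of KIF1C.

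The partners of each class were read the same way. Of the light chains, adaptors and microtubule-binding helpers of transport kinesins, 4 of 25, 6 of 27 and 4 of 23 were called higher at 24 h, against 7.87%, 10.5% and 10.9% of all genes. FEZ1 and MAP7D2 were called lower at 24 h in SH-SY5Y, where 11.0% of all genes were. At the longer time 11 of 25, 11 of 27 and 12 of 23 were higher, against 16.6%, 18.6% and 24.5%, and 1, 2 and 1 lower, against 15.5%, 17.3% and 22.3%. The medians of this list were 0.44, 0.34 and 0.53 then. SYBU (syntabulin), which links kinesin-1 to syntaxin vesicles and mitochondria, rose by 0.98, 1.65 and 1.097 at 24 h and 1.87, 2.33 and 1.34 later. MAPK8IP3, a kinesin-1 adaptor of axonal vesicles, rose by 0.57, 0.73 and 1.16 and 0.89, 0.86 and 1.93. The light chain KLC4 rose at the longer time by 0.82, 1.04 and 1.54. KIFAP3, the kinesin-2 adaptor, picked after its values were seen, rose then by 0.75, 0.57 and 1.496, beside the rise of KIF3C. MAP7D3 was the partner that fell in all 3 lines, with -0.77, -0.69 and -0.74.

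All 18 division partners, the genes that work with mitotic kinesins at kinetochores, spindle and midbody, were called lower at 24 h and at the longer time in each line, where 10.5%, 11.0% and 10.6% and then 15.5%, 17.3% and 22.3% of all genes were. CENPE, in this list, is itself a mitotic kinesin that the search by symbol did not find. AURKB, the kinase of the chromosomal passenger complex that KIF20A carries, fell by the most of this list on average, with -3.42, -5.68 and -4.46 at 24 h, then -1.93, -3.19 and -3.47. The mitotic kinase PLK1, which KIF20A also binds, had -2.66, -4.56 and -3.43 and -1.57, -2.91 and -2.897. BIRC5, another subunit of the passenger complex, had -2.53, -3.85 and -3.54 at 24 h, and HMMR, a spindle protein that binds TPX2, had -1.51, -2.55 and -3.29 at the longer time. From 24 h on, 18 of 18 were called higher in IMR-32, 16 of 18 in SH-SY5Y and 5 of 18 in SK-N-BE(2)C. The shares of all genes called higher were 10.8%, 10.5% and 17.5%. AURKB, CDCA8, GTSE1 and PRC1 of this list rose in all 3 lines.

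Of dynein, the motor of the opposite direction, and dynactin, 21 genes were tested in IMR-32, 22 in SH-SY5Y and 22 in SK-N-BE(2)C. The calls at 24 h were DYNC1I1, higher in SK-N-BE(2)C, and NDE1, lower in each line. Of all genes, 10.9% were called higher in SK-N-BE(2)C, and 10.5%, 11.0% and 10.6% lower in the 3 lines. At the longer time 3 of 21 were higher in IMR-32 and 5 of 22 in SK-N-BE(2)C, near the 16.6% and 24.5% of all genes. In SH-SY5Y 0 of 22 were higher by edgeR's quasi-likelihood test and by DESeq2, with 9 at an unadjusted p under 0.05, where 18.6% of all genes were. Called lower then were NDE1 in each line, DCTN3 in SK-N-BE(2)C and DYNC1I1 in SH-SY5Y. Of all genes 15.5% were called lower then in IMR-32, 17.3% in SH-SY5Y and 22.3% in SK-N-BE(2)C. NDE1, a dynein regulator used in mitosis and neuroblast division, had log2 fold changes of -1.93, -1.32 and -1.59 at 24 h, then -1.62, -1.002 and -2.07. Its relative NDEL1, which acts in neurons, had 0.12, 0.40 and 0.10 at the longer time, not called.

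The lines were checked against their label with 7 adrenergic and 6 mesenchymal marker genes found in the tables. The adrenergic sum of IMR-32 was 1957 to 3051 CPM in the controls, 3061 to 3947 at 24 h and 2865 to 3502 at the longer time, that of SH-SY5Y 3895 to 5129 CPM in the controls, 5687 to 7488 at 24 h and 4065 to 5840.03 at the longer time, and that of SK-N-BE(2)C 1966 to 2229 CPM in the controls, 2812 to 3048 at 24 h and 2481 to 3034 at the longer time. For the mesenchymal sum the ranges were 104 to 249 CPM in the controls, 82.5 to 153 at 24 h and 33.2 to 49.1 at the longer time of IMR-32, 363 to 401 CPM in the controls, 245 to 381 at 24 h and 199 to 275 at the longer time of SH-SY5Y, and 110.2 to 141 CPM in the controls, 138 to 158 at 24 h and 152 to 322 at the longer time of SK-N-BE(2)C. In SK-N-BE(2)C the members went apart at 7 days, with 4 of 6 called lower and 1 higher where 22.3% and 24.5% of all genes were, and a median log2 fold change of -1.18. At 5 days 2 of 3 tested were called lower in IMR-32, against 15.5% of all genes. In SH-SY5Y 2 of 6 were called lower and 1 higher at 5 days, against 17.3% and 18.6%. Of the 7 adrenergic genes in IMR-32, DBH was called lower at 5 days and TH higher, with log2 fold changes of -4.09 and 2.36. In that comparison 15.5% of all genes were called lower and 16.6% higher. At 24 h 4 of 7 were called higher in IMR-32, 2 of 7 in SH-SY5Y and 1 of 7 in SK-N-BE(2)C. The shares of all genes were 7.87%, 10.5% and 10.9%. At the longer time 1 of 7 was called higher in SH-SY5Y and 0 of 7 in SK-N-BE(2)C, against 18.6% and 24.5%. TH, the first enzyme of noradrenaline synthesis, was near 0 in SH-SY5Y, and FOSL1 and CD44 were at or near 0 in IMR-32. The mesenchymal sum was lowest at the longer time in IMR-32 and SH-SY5Y and highest then in SK-N-BE(2)C, while the transport sum was highest then in all 3 lines, and the part of these marker changes in the kinesin results was not tested.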

How the data were processed

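The members and the gene lists were chosen with earlier results of these data known. Per the labels and the methods, the authors trimmed paired-end reads (Trim Galore 0.6.4, minimum Phred score 20), aligned them to hg19 with STAR and deposited raw counts per gene for each line. No source used here states the strand that was counted. The authors' CPM and DESeq2 tables (fold changes and p-values) were not used. For each line the 15 libraries were fitted with edgeR 4.0.16 (R 4.3.3): filterByExpr (minimum count 10, minimum total 15, share 0.7), TMM factors, a mean per group and robust quasi-likelihood F tests of 24 h against control, longer against control and longer against 24 h, with Benjamini-Hochberg adjustment over all genes tested. A fit of all 45 libraries tested differences between lines. The named genes were every tested mitotic and transport kinesin and any other kinesin called against control in at least 2 lines (KIF9 and KIF24); the rest of the other kinesins were named after their values were seen. Given library by library were KIF1A, KIF3A, KIF3B, KIF3C, KIF5A, KIF5B and KIF5C, the 3 mitotic kinesins with the largest mean change at 24 h, and every non-mitotic kinesin called the same way in all 3 lines against control. Of each partner list the 3 with the largest mean change among those called in all 3 lines were named, except 1 that is not reported here. Alternatives were RLE factors, DESeq2 1.42.0, no filter, no fold limit, the replicate number as a block, 1 fit of all lines and leaving out each library; 2 more, without the libraries that stood apart, were chosen after seeing the data. Samples with the same replicate number deviated together, as the correlation of deviations from group means was over 0.1 for every pair in IMR-32 and SH-SY5Y, and in SK-N-BE(2)C at 24 h (lowest 0.243) but not for the longer time (lowest 0.0966) or longer against 24 h (lowest 0.0482). No pair of replicates agreed within sampling noise (chi-square per degree of freedom of 1.69 or more). Exon overlaps came from a GENCODE annotation on GRCh37, and promoters from a set of RefSeq starts (GRCh38.p14). The set used here had no entry for KIF5A, KIF13B, KIF19, KIF21B, KIF26B, KIF27, KIF28P, KIFC2 and KIFC3.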

Additional observations from a re-analysis of the deposited data

Results flagged for a closer look

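In 108 groups of 5 libraries of the genes given library by library, 14 held a value set apart from the other 4 by Dixon's test, where chance alone gives about 1 in 20. Of these, 6 were in the replicate 5 control of IMR-32, with KIF1A at 608.87, KIF5A at 32.58, KIF5C at 439.07, KIF20A at 201.75, KIF4A at 95.33 and KIF24 at 23.39 CPM. KIF24 in the 24 h replicate 5 (5.14 CPM) and KIFC2 in the 5 d replicate 5 (99.08 CPM) of the same line were set apart too. In SK-N-BE(2)C they were KIF2C in control replicate 1 (88.07 CPM), KIF3B in 7 d replicate 1 (116.3 CPM) and KIFC2 in 7 d replicate 5 (23.63 CPM). In SH-SY5Y they were KIFC2 in control replicate 5 (45.31 CPM) and 24 h replicate 1 (127.28 CPM) and KIF5B in 5 d replicate 5 (372.24 CPM).

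For the same genes the response differed between lines at 24 h for KIF20A (edgeR adjusted p = 0.0044) and KIF24 (edgeR adjusted p = 0.037). At the longer time it differed for KIF3B (6.9e-06), KIFC2 (0.00012), KIF3A (0.0002), KIF5C (0.00042), KIF2C (0.0054), KIF20A (0.012), KIF4A (0.019) and KIF5A (0.029), as edgeR adjusted p-values of an interaction of line and treatment.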

How the results depend on the processing

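All 18 counts of called mitotic and transport kinesins stayed within 1.5 times of their value under RLE factors, DESeq2 and 1 fit of all lines, and no called value changed sign under any alternative run. Transport kinesins called higher at 24 h, 1 in IMR-32, 2 in SH-SY5Y and 0 in SK-N-BE(2)C, numbered 3, 6 and 4 without the fold limit, and 0 in IMR-32 without the filter on low counts. In SH-SY5Y at the longer time, 9 rather than 5 were higher and 4 rather than 2 lower without the fold limit. Mitotic kinesins higher at the longer time than at 24 h in SK-N-BE(2)C, 4, were 2 without the filter and 2 with replicates 1, 2 and 5 only. Leaving out single libraries gave 2 to 5 for that count, 0 to 3 (IMR-32) and 0 to 1 (SK-N-BE(2)C) for transport kinesins higher at 24 h, and each other count within 1.5 times. The 24 h value of KIF5A in IMR-32 was 0.84 (edgeR adjusted p = 0.11) without the filter. The causes were not tested.

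With the replicate as a block all 18 counts stayed within 1.5 times, and of 330 values for single genes 324 kept their call. The block made 5 calls and ended 1: KIF21B in IMR-32 at 24 h (-1.23) and longer against 24 h (0.83), KIF6 in IMR-32 at 24 h (0.56), KIF19 in IMR-32 longer against 24 h (-1.05) and KIFC1 in SH-SY5Y longer against 24 h (1.23) were the first, and KIF7 in IMR-32 at 24 h (0.49) was the last. Without replicate 5 of IMR-32, longer against 24 h, KIF21B (0.81) and KIF19 (-1.51) were called, and KIF19 also with DESeq2 (-1.26) and 1 fit of all lines (-1.31). With replicates 1, 2 and 5 only of SK-N-BE(2)C, KIF13B longer against 24 h (0.66) and KIF7 at 24 h (0.56) were called, and KIF17 longer against 24 h (-1.45) was not. KIF26B in SH-SY5Y at the longer time was not called in 1 fit of all lines (-0.48) or without the filter. Low levels limit KIFC1, KIF17, KIF13A in SK-N-BE(2)C and KIF21B, which rest on few counts.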
